A study of Mus musculus with 8 samples.

Results

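The genes described here are 10 members of the tetraspanin family: Cd81, Cd9, Cd63, Cd53, Cd37, Cd82, Cd151, Tspan3, Tspan4 and Tspan14. They were chosen by family name, as rows of the count table that carry one of these symbols, and they are 10 of 35583 genes in that table. The choice was made with earlier results of the same libraries in view, and no threshold of level or change enters it. The differences of these genes between the groups are therefore given as a description of the libraries and are not used as evidence.

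RNA was sequenced from sorted hypothalamic microglia, the macrophages that reside in the brain. The mice were young and wild-type. All mice had received dye-labelled plasma protein 20 hours earlier, so the negative group also comes from injected animals. The 2 groups were 4 libraries of plasma-positive and 4 libraries of plasma-negative microglia, made with Smart-seq2, a protocol that copies whole transcripts from little RNA. The labels give no exact age, no sex, no other treatment and no gate for the sort, and they do not say whether the libraries came from separate animals.

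Tetraspanins are small proteins that cross the membrane several times and expose a small and a large loop on the outer side. They bind integrins, immunoglobulin-like proteins, proteases and one another, and gather them into patches of the plasma and endosomal membranes. Cd81, Cd9 and Cd63 are widely used as markers of extracellular vesicles, Cd37 and Cd53 are mostly found on leukocytes, and Cd9 and Cd63 are known to be induced in microglia of diseased brain.

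The large loop of every family member carries a cysteine-cysteine-glycine motif, the signature by which the family is recognised. The motif is shown because it is what the 10 genes have in common as a family. Each line gives 27 bases of coding sequence, 5′ to 3′, from GENCODE M21 on build GRCm38 (mm10), with the 9 bases that encode the motif in capitals.
Cd81: acgctcaacTGTTGTGGCtccaacgca
Cd9: gcgttggacTGCTGTGGCatagctggt
Cd63: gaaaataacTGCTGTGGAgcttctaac
Cd53: caactgcagTGTTGTGGTgtaaatggc
Cd37: cagctgcgcTGCTGCGGCtggcaatct
Cd82: caggtcaagTGCTGTGGCtgggtcagc
Cd151: gagttccacTGTTGTGGCagcaacaac
Tspan3: cagttgcacTGTTGTGGAattcataac
Tspan4: gatttccgaTGCTGTGGAgtttccaat
Tspan14: gctaatcagTGCTGCGGGgcttacggc

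The search took TGT or TGC, again TGT or TGC, and GGN, in frame on the coding strand, between 50 and 75% of the coding length. All 10 genes matched, with the motif at codons 144 to 156 of coding sequences of 219 to 281 codons, and the bases flanking it differed in every gene. The 10 motifs were spelled in 7 ways. Anywhere in frame, the same letters were found in 551 of 21504 complete mouse coding sequences (2.56%), and in all of the 21 other tetraspanins listed. Cd63 alone among the 10 genes ended in codons for a tyrosine, any pair of residues and a bulky hydrophobic residue, the form of signal that sends Cd63 to late endosomes and lysosomes. Its last 27 bases are shown with these codons in capitals.
Cd63: attcgaagtggcTATGAAGTAATGtag
Such an end was found in 0.874% of the 21504 sequences, and in 4 of the 31 listed tetraspanins. The same form further from the end was not searched for in any gene.

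Total counts per library were 2963094 to 21422738 in the plasma-negative group and 9421708 to 20562689 in the plasma-positive group, and the smallest belonged to plasma-negative replicate 4. Libraries of a group differed by a chi-square of 23.2 to 59.0 per degree of freedom, far above counting noise, so none was deposited more than once. Gene counts were 68.9 to 74.6% of the total behind the deposited RPKM values in the plasma-negative group and 81.4 to 84.2% in the plasma-positive group, so levels are compared between groups as CPM, counts per library size after TMM scaling. The microglial markers Cx3cr1, P2ry12 and Tmem119 were abundant in every library, at 10351 to 12253, 6359 to 9371 and 7860 to 9772 CPM. Every member had counts in every library, and the smallest count of any of them was 257, for Cd151 in plasma-negative replicate 4. All 10 passed the filter on low counts.

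Cd81 had the highest level of the family per exon length, and Cd53 and Cd9 followed. In RPKM, reads scaled to exon length and library size, Cd81 was at 1392 ± 87.8 in plasma-negative and 2072 ± 107 in plasma-positive microglia (SD, n = 4). By mean RPKM it ranked 18 and 17 among all genes. Cd53, a leukocyte tetraspanin, was at 769 ± 153 and 973 ± 54.2 RPKM, and ranked 31 and 30. Cd9, which binds integrins and membrane-bound growth factors, was at 635 ± 96.1 and 763 ± 42.2 RPKM, ranking 35 and 36. In both groups, all 3 thus ranked between 17 and 36 of all genes per length.

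Cd9 stood 4.65-fold above the next gene in the plasma-negative and 4.96-fold above it in the plasma-positive group. In plasma-negative libraries the order went on with Cd37 at 137 ± 8.99, Tspan14 at 126 ± 17.9, Tspan4 at 94.8 ± 10.6 and Cd82 at 83.0 ± 11.6 RPKM. The ranges of neighbours in this order overlapped, so no gene differed from the next beyond their spread. Genes further apart did, since Cd37 lay above Tspan4 and Cd82, and Tspan14 above Cd82, with no overlap among the plasma-negative libraries. Tspan3 at 32.02 ± 4.17, Cd63 at 30.3 ± 5.23 and Cd151 at 25.2 ± 5.20 RPKM closed the order, again with overlapping neighbours. Between the blocks the ranges did not overlap, with Cd9 above Cd37 and Cd82 above Tspan3. Cd81 and Cd53 did not overlap either, while Cd53 and Cd9 did.

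In plasma-positive libraries the same 3 blocks were seen, with changes of order inside them. Tspan14 at 154 ± 19.5 and Cd37 at 149 ± 6.56 RPKM changed places within overlapping ranges, followed by Tspan4 at 97.8 ± 12.4 and Cd82 at 91.7 ± 8.88 RPKM. In the lowest block Cd63 at 51.1 ± 4.00 RPKM stood above Tspan3 at 42.0 ± 7.08 and Cd151 at 39.5 ± 4.13 RPKM, with overlapping neighbours. Here the ranges of Cd53 and Cd9, of Cd37 and Tspan4, and of Cd63 and Cd151 did not overlap. Cd63 ranked 992 among all genes in the plasma-negative and 690 in the plasma-positive group. The order of the 10 genes was the same with CPM per kilobase and with medians over libraries.

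**Figure D1:**
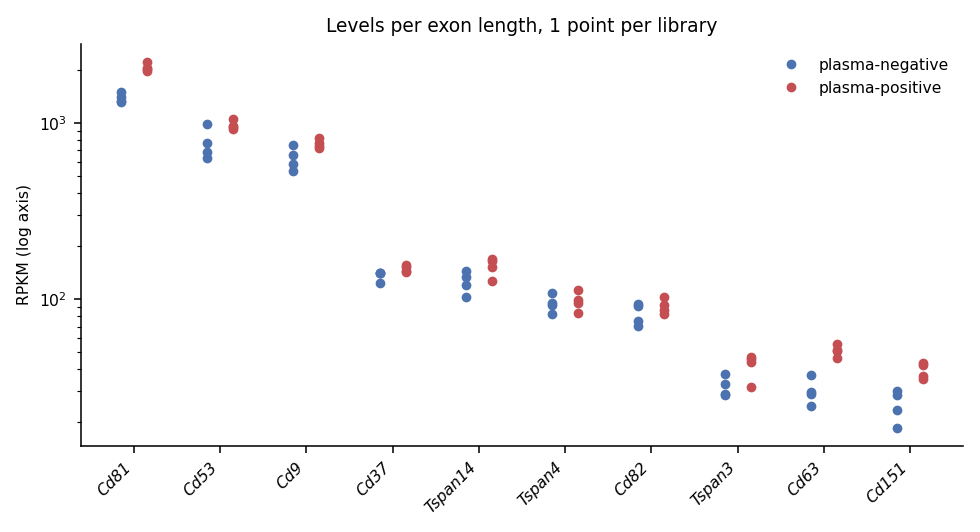
RPKM (log axis) of the 10 tetraspanins, ordered by their mean in plasma-negative microglia, with 1 point per library and the groups in different colours. Cd81, Cd53 and Cd9 lie above all others in every library, Cd37, Tspan14, Tspan4 and Cd82 form a middle block, and Tspan3, Cd63 and Cd151 the lowest.

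The 10 genes held most of the family's RNA per length. Of the summed RPKM of the 31 listed tetraspanins they made up 91.4 to 92.8% in every library. Cd81 alone was 39.3 to 43.8% of the sum of the 10 in the plasma-negative group and 45.9 to 48.5% in the plasma-positive group, without overlap. Cd53 was 22.97% ± 1.94 and 21.95% ± 1.22 of that sum, and Cd9 19.06% ± 0.96 and 17.23% ± 1.21 (SD, n = 4). A share within a library does not depend on the library's scaling, but a higher share of Cd81 lowers the shares of the others.

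Replicates of a group were close for most of these genes. The SD of log2 CPM was 0.08 in both groups for Cd81, and 0.09 and 0.07 for Cd37, in plasma-negative and plasma-positive libraries. The medians over the 5176 tested genes of at least 32 CPM were 0.30 and 0.25. The widest spreads were 0.33 for Cd151 in the plasma-negative and 0.29 for Tspan3 in the plasma-positive group. The biological coefficient of variation estimated by edgeR was 0.10 to 0.19 for the 10 genes, with a median of 0.14, beside a median of 0.24 for the 5176 genes. The 10 genes averaged from 115 CPM (Cd151) to 6461 CPM (Cd81) over all libraries, and their spread was not compared with that of genes of like level.

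Between the groups, edgeR's quasi-likelihood test called 2 of the 10 genes at an adjusted p under 0.05, Cd81 and Cd63, both higher in plasma-positive microglia. Of all 13277 tested genes, 187 (1.41%) were called, and 112 (0.844%) were called higher. The libraries of the groups did not overlap for Cd81, Cd63 and Cd151, beside 1364 of 13277 genes (10.3%). Of the 5176 tested genes of at least 32 CPM, 160 were called, 96 of them higher, and the groups did not overlap for 836. The log2 fold change was positive for 9 of the 10 genes and negative for 1, with a median of 0.19. That median was 0.01 over all tested genes and 0.06 over those of at least 32 CPM. Since the contrast was known when the genes were chosen, nothing is read from these counts.

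The fit was repeated with each library's trend over exon length and GC content removed. The 10 genes had a median exon length of 2810 bases, shorter than the 3976 bases of all tested genes. With this correction 1 of the 10 genes was called, Cd81, beside 70 of 13277 tested genes (0.527%). The change was then positive for 7 genes, with a median of 0.19 again.

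**Figure D2:**
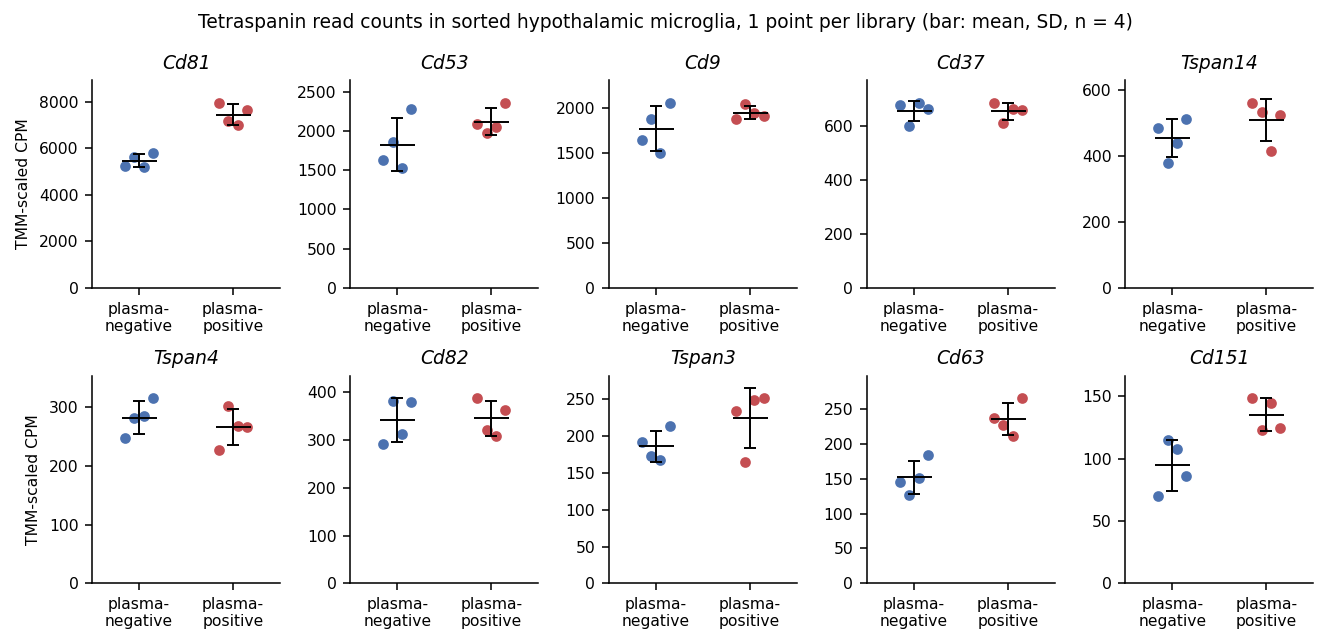
TMM-scaled CPM of each of the 10 tetraspanins, with 1 point per library and the mean and SD of 4 libraries as bars. Each panel starts at 0 and has its own scale. The groups do not overlap for Cd81, Cd63 and Cd151.

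Cd81 (ENSMUSG00000037706, chr7:143052739-143067934) encodes a tetraspanin that binds Cd9 and integrins. It was at 5238, 5633, 5212 and 5786 CPM in plasma-negative replicates 1 to 4, and at 7974, 7187, 7016 and 7646 CPM in plasma-positive replicates 1 to 4. The lowest plasma-positive library thus lay above the highest plasma-negative one. The means were 5467 ± 287 and 7456 ± 436 CPM (SD, n = 4), a log2 fold change of 0.45, SE 0.05 (edgeR, adjusted p = 0.00265). This is 1.37-fold, with a 95% interval of 0.34 to 0.56 on the log2 scale. With the length and GC correction the change was 0.34 (edgeR, adjusted p = 0.0307). Leaving out any 1 library kept the call, at 0.42 to 0.48 in the 8 fits. Of its exon length, 3.61% overlapped R74862 on the other strand.

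Cd63 (ENSMUSG00000025351, chr10:128900989-128912822), a tetraspanin of late endosomes, lysosomes and extracellular vesicles, is the gene whose end is printed above. Its values were 146, 127, 151 and 184 CPM in the plasma-negative and 237, 228, 211 and 266 CPM in the plasma-positive libraries. The groups did not overlap, and replicate 4 was the highest of both groups. The means were 152 ± 23.6 and 236 ± 23.02 CPM (SD, n = 4). The log2 fold change was 0.64 (95% interval 0.34 to 0.94) and its SE 0.14 (edgeR, adjusted p = 0.0452). The call was lost, with the change still at 0.56 to 0.69, when any library other than plasma-negative replicate 4 was left out (edgeR, adjusted p between 0.0720 and 0.118). Without plasma-negative replicate 4 it was 0.74 (edgeR, adjusted p = 0.0277). The call was also lost with the length and GC correction, at 0.51 (edgeR, adjusted p = 0.201), with relative log expression scaling, at 0.61 (edgeR, adjusted p = 0.0569), and with library totals only, at 0.52 (edgeR, adjusted p = 0.0748).

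Cd151 (ENSMUSG00000025510, chr7:141467392-141471473), which binds laminin-binding integrins, was at 69.8, 115, 108 and 86.3 CPM in plasma-negative and 149, 123, 144 and 124 CPM in plasma-positive libraries. The groups did not overlap, though the lowest plasma-positive library lay close above the highest plasma-negative one. The means were 94.6 ± 20.4 and 135 ± 13.3 CPM (SD, n = 4). The log2 fold change was 0.51 with an SE of 0.18 and did not pass the test (edgeR, unadjusted p = 0.0127, adjusted p = 0.199). With the length and GC correction it was 0.35 (edgeR, adjusted p = 0.508). Of its exon length, 7.04% overlapped Gm10575 on the other strand.

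Cd53 and Cd9, the other abundant members, did not pass the test. Cd53 (ENSMUSG00000040747, chr3:106759921-106790149) was at 1626, 1856, 1531 and 2285 CPM in plasma-negative and 2092, 1972, 2052 and 2362 CPM in plasma-positive libraries. Plasma-negative replicate 4 lay inside the plasma-positive range and the other 3 below it. The log2 fold change was 0.22, SE 0.11 (edgeR, adjusted p = 0.424), and 0.39 with the length and GC correction, which moved it upward (edgeR, adjusted p = 0.225). It was 0.35 without plasma-negative replicate 4 (edgeR, adjusted p = 0.0738) and 0.11 with library totals only. Cd9 (ENSMUSG00000030342, chr6:125460266-125494791) was at 1647, 1875, 1501 and 2061 CPM and at 1882, 2048, 1947 and 1913 CPM in the same order. Plasma-negative replicate 4 was the highest of all 8 libraries, and the plasma-positive SD was 72.2 CPM beside 247 CPM in the plasma-negative group. The log2 fold change of Cd9 was 0.14 with a 95% interval of -0.06 to 0.33 (edgeR, adjusted p = 0.542). It was 0.22 without plasma-negative replicate 4, 0.07 without plasma-negative replicate 3 and 0.03 with library totals only. Of the exon length of Cd9, 10.7% overlapped Gm26728 on the other strand.

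Cd37 and Cd82 had nearly equal means in both groups. Cd37 (ENSMUSG00000030798, chr7:45233632-45239115), known mainly from lymphocytes and other leukocytes, was at 677, 601, 684 and 665 CPM in plasma-negative and 688, 612, 665 and 659 CPM in plasma-positive libraries. Its log2 fold change was 0.00 with a 95% interval of -0.17 to 0.17 (edgeR, adjusted p = 0.999). Cd82 (ENSMUSG00000027215, chr2:93419111-93463140), known as a suppressor of metastasis that limits cell movement, was at 291, 381, 312 and 378 CPM and at 388, 321, 309 and 361 CPM. Its log2 fold change was 0.02 with a 95% interval of -0.24 to 0.28 (edgeR, adjusted p = 0.967). The sign of both turned with library totals only, where the median of all genes shifted to -0.11, and with the length and GC correction, at -0.13 and -0.14.

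Tspan14, Tspan3 and Tspan4 did not pass the test either. Tspan14 (ENSMUSG00000037824, chr14:40906445-40966807), one of the TspanC8 group that carries the protease Adam10 to the cell surface, was at 486, 379, 440 and 511 CPM in plasma-negative and 563, 535, 416 and 525 CPM in plasma-positive libraries. Plasma-positive replicate 3 fell among the plasma-negative values, and the log2 fold change was 0.17, SE 0.12 (edgeR, adjusted p = 0.605). The change of Tspan14 was 0.26 without plasma-positive replicate 3, 0.09 without plasma-negative replicate 2, 0.06 with library totals only and 0.04 with the length and GC correction. Tspan3 (ENSMUSG00000032324, chr9:56131725-56165477) was at 192, 172, 168 and 214 CPM and at 234, 165, 249 and 252 CPM. Plasma-positive replicate 2 was the lowest of all 8 libraries and the other 3 plasma-positive libraries were the highest, with a log2 fold change of 0.27 and an SE of 0.15 (edgeR, adjusted p = 0.476), or 0.16 with library totals only. Tspan4 (ENSMUSG00000025511, chr7:141475240-141493427), a tetraspanin of migrasomes, the vesicles left behind on the retraction fibres of moving cells, was at 246, 280, 284 and 315 CPM and at 227, 302, 268 and 267 CPM. Tspan4 was the member with a negative log2 fold change, -0.08 with a 95% interval of -0.34 to 0.18 (edgeR, adjusted p = 0.846), and 13.4% of its exon length overlapped Chid1 on the other strand. The change of Tspan4 ranged from -0.15 without plasma-positive replicate 2 to -0.0084 without plasma-positive replicate 1, and it was -0.02 without plasma-negative replicate 4 and -0.14 without plasma-negative replicate 1. It was -0.24 with the length and GC correction and -0.19 with library totals only. On the same chromosome Tspan4 begins shortly after the end of Cd151.

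**Figure D3:**
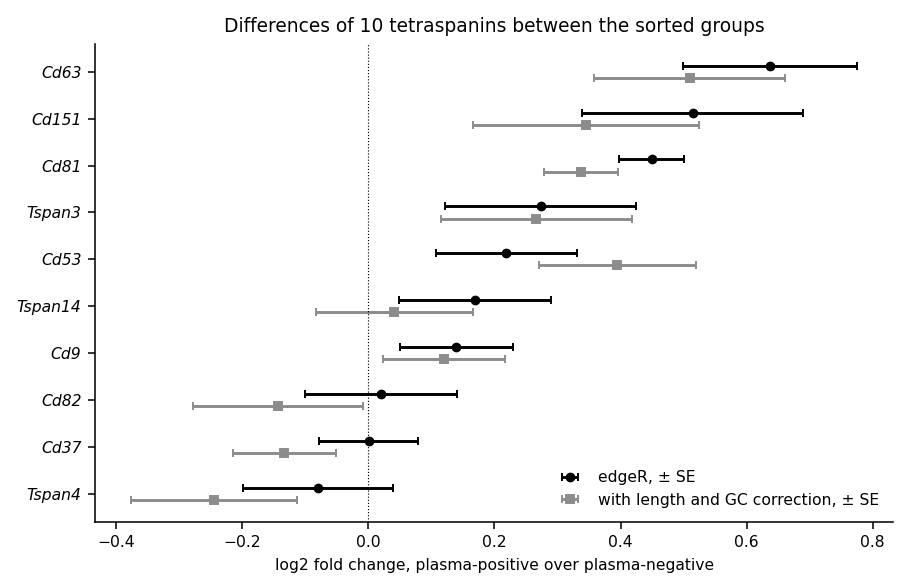
Log2 fold change of plasma-positive over plasma-negative microglia for the 10 tetraspanins, with the SE of edgeR's fit as bars, in black without and in grey with the length and GC correction. Cd63 (0.64), Cd151 (0.51) and Cd81 (0.45) lie farthest to the right, and the correction moves all 3 toward 0.

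The wider family was read from a list of the 21 other mouse tetraspanins, also drawn up with earlier results known. All 21 were in the table and 10 passed the filter on low counts. None (0) was called by edgeR, and 3 had an unadjusted p under 0.05 (Tspan7, Tspan13 and Tspan18), beside 1831 of all 13277 tested genes and 1248 of the 5176 of at least 32 CPM. DESeq2 called 1 of these 21, Tspan7, and 963 genes in all. The change was positive for 8 of the 10 and negative for 2, with a median of 0.24.

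Tspan7 (ENSMUSG00000058254, chrX:10485158-10596605), known for its part in dendritic spines and in intellectual disability, was at 273, 244, 191 and 301 CPM in plasma-negative and 363, 342, 394 and 411 CPM in plasma-positive libraries. The groups did not overlap, and the log2 fold change was 0.59 with an SE of 0.14, just short of the threshold (edgeR, adjusted p = 0.0612). With the length and GC correction it was 0.72 and passed (edgeR, adjusted p = 0.0475). It also passed without plasma-negative replicate 4, at 0.68 (edgeR, adjusted p = 0.0398). Like Cd63, Tspan7 ends in codons for a tyrosine, any pair of residues and a hydrophobic one.

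Tspan13 was at 302, 263, 341 and 499 CPM in plasma-negative and 483, 497, 486 and 492 CPM in plasma-positive libraries. Plasma-negative replicate 4 was above all plasma-positive libraries and the other 3 were below them, and the log2 fold change was 0.49 (edgeR, adjusted p = 0.196). Without that library it was 0.70 and passed (edgeR, adjusted p = 0.0151). Tspan18 went from 53.8 ± 15.7 to 82.6 ± 13.4 CPM (SD, n = 4; edgeR, adjusted p = 0.241) and Tspan32, a leukocyte tetraspanin, from 29.1 ± 5.88 to 41.0 ± 2.29 CPM, without overlap (edgeR, adjusted p = 0.379). Tspan31 (0.11), Upk1b (0.13), Tspan9 (0.02), Tspan5 (0.35) and Tspan33 (-0.20) had log2 fold changes whose 95% intervals include 0. For Tspan31, 29.2% of the exon length overlapped Cdk4, so its counts are uncertain. Tspan6, Tspan10 and Prph2 had 0 counts in all libraries, which allows up to 3 counts, or 0.132 to 1.01 CPM.

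The partners of tetraspanins, a list of proteases, integrins, immunoglobulin-like proteins and vesicle factors, had 19 genes in the table and 15 tested. EdgeR called 1 of the 15, Sdcbp, higher in plasma-positive microglia, beside 112 of all 13277 tested genes called higher (0.844%). The change was positive for 9 and negative for 6, with a median of 0.03, and positive for 6695 of all tested genes. Sdcbp (ENSMUSG00000028249, chr4:6365650-6408423) encodes syntenin, which binds the tail of Cd63 and takes part in the budding of vesicles into endosomes. It was at 373, 458, 353 and 465 CPM in plasma-negative and 689, 527, 597 and 626 CPM in plasma-positive libraries, without overlap. The log2 fold change was 0.57, SE 0.12 (edgeR, adjusted p = 0.0376), and 0.71 with the length and GC correction (edgeR, adjusted p = 0.0250). The call was lost with relative log expression scaling, at 0.54 (edgeR, adjusted p = 0.0520), and with library totals only, at 0.45 (edgeR, adjusted p = 0.0639). As with Cd63, leaving out any library other than plasma-negative replicate 4 ended the call, at 0.50 to 0.63 (edgeR, adjusted p between 0.0527 and 0.116). Without that replicate it passed, at 0.63 (edgeR, adjusted p = 0.0367).

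Adam10, the protease that the TspanC8 tetraspanins carry, was at 400, 443, 382 and 406 CPM in plasma-negative and 486, 489, 480 and 457 CPM in plasma-positive libraries. The groups did not overlap, and the log2 fold change of 0.23 with an SE of 0.08 did not pass (edgeR, adjusted p = 0.234). Among the TspanC8 genes, Tspan14 was the most abundant per length in every library, at 103 to 170 RPKM. Tspan33 was at 5.56 to 10.9 RPKM and Tspan5 at 0.70 to 2.98 RPKM. The integrin chain Itgb1, a partner of Cd9, Cd81 and Cd151, was at 303 ± 57.9 and 337 ± 28.3 CPM (SD, n = 4), and its log2 fold change was 0.15 (edgeR, adjusted p = 0.698). The leukocyte integrin chains Itgb2 and Itgam had changes of 0.33 and -0.04 (edgeR, adjusted p = 0.233 and 0.920). Exons of Itgam shared 68.7% of their length with another gene on the same strand, so its counts are uncertain.

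**Figure D4:**
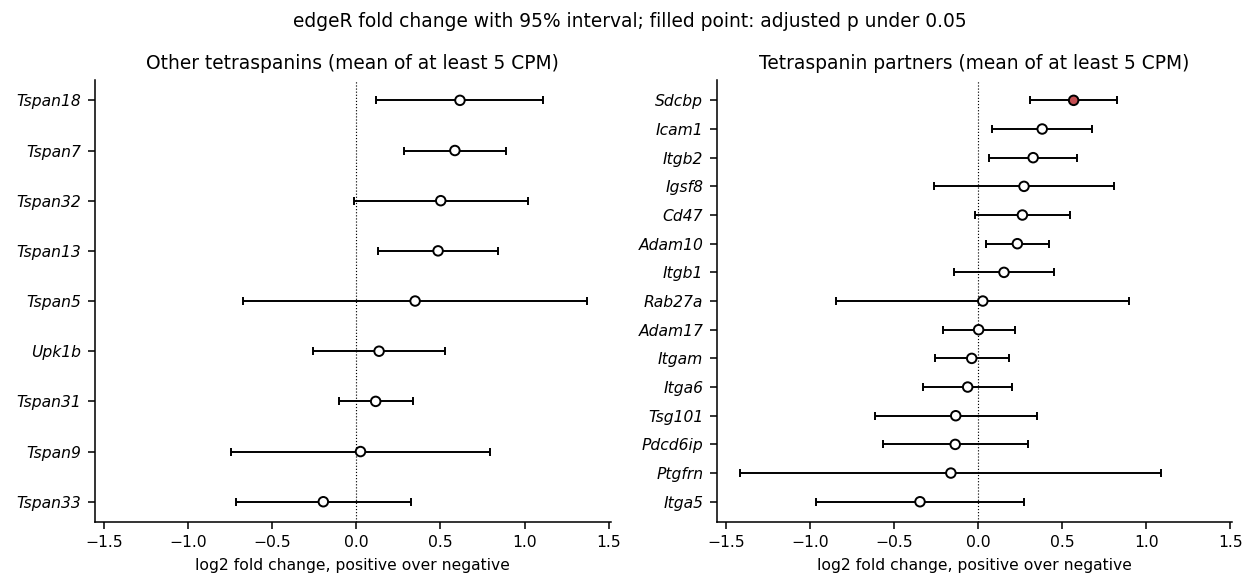
Log2 fold change of plasma-positive over plasma-negative microglia with its 95% interval, for the other tetraspanins (left) and the partners of tetraspanins (right) with a mean of at least 5 CPM. The filled point is Sdcbp at 0.57, the gene called by edgeR, and the open points of the other genes were not called.

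Marker sums of some other cell types were higher in some or all plasma-positive libraries than in every plasma-negative one. Their part in the results above was not tested. Summed CPM of the 8 platelet markers was 28.99 to 61.04 in the plasma-negative and 76.1 to 98.2 in the plasma-positive group, without overlap, and nearly all of it came from Gp9. Ppbp, Gp6 and Tubb1 of that list were at 0 counts in all libraries, while Cd9 and Cd63 are abundant in platelets. The 8 oligodendrocyte markers summed to 157 to 230 and 221 to 534 CPM, and the 8 neuron markers to 2.69 to 33.8 and 3.08 to 273 CPM, both highest in plasma-positive replicate 2. The 8 monocyte and neutrophil markers summed to 0.67 to 13.8 CPM in plasma-negative libraries and reached 958 CPM in plasma-positive replicate 3, with 0.11 to 1.92 CPM in the other 3. Border macrophage markers summed to at most 16.5 CPM, with Lyve1, Cd163 and F13a1 at 0, and the lymphocyte markers to 30.03 to 94.3 CPM, with Ms4a1, Cd3d, Cd3e and Cd3g at 0. Astrocyte markers summed to 208 to 327 CPM and endothelial and pericyte markers to 24.7 to 64.2 CPM, in overlapping ranges.

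Of the 64 genes listed for other cell types 22 were tested. EdgeR called 0 of them, with 6 at an unadjusted p under 0.05, beside 1831 of all 13277 tested genes. DESeq2 called 3 (Gp9, Cnp and Aldh1l1), all higher in plasma-positive libraries, beside 480 genes called higher and 483 lower in all. None of the 8 monocyte and neutrophil markers passed the filter on low counts, so that list could give no call, and 1 platelet and 1 lymphocyte marker were tested. The 10 microglial markers summed to 61576 to 72452 CPM in the plasma-negative and 67798 to 72969 CPM in the plasma-positive group, with plasma-negative replicate 4 inside the plasma-positive range, and 1 of them was called higher. In bulk libraries, fewer cells of a type and less RNA per cell cannot be told apart. Without plasma-positive replicates 2 and 3, a setting chosen after seeing the data, Cd81 was still called, at 0.52 (edgeR, adjusted p = 0.0124). Cd63 was at 0.74 and Sdcbp at 0.68 in that fit, and neither was called (edgeR, adjusted p = 0.190 and 0.143). Of all tested genes 15 were called there.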

How the data were processed

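The deposited counts, whole-number reads per gene and library, and the deposited RPKM values, made by the authors, cover the same 35583 genes per the file headers. The submitters' processing notes name build mm10, bcl2fastq, Trim Galore, STAR and HTSeq. Their versions, the annotation and the use of strand are not given in the sources used here, so values of overlapping genes are uncertain. The test was edgeR 4.0.16 (R 4.3.3) with TMM factors, its expression filter and a quasi-likelihood F test of group without a covariate. Benjamini-Hochberg adjustment ran over all 13277 tested genes, and called means an adjusted p under 0.05. Exon lengths, GC content and coding sequences came from GENCODE M21 (99.9% of identifiers matched).

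The correction for length and GC content used a loess of span 0.3 per library. The members and the gene lists were chosen with earlier results of these data known. Named were all 10 members, other tetraspanins called or of at least 5 CPM, 4 fixed partners with any called, 3 microglial markers and markers at 0 counts in all libraries. Tspan6, Tspan10, Prph2, Gp9, Cnp and Aldh1l1 were named after their values were seen. One marker gene is not reported here. Alternatives were other normalizations and filters, DESeq2 1.42.0, limma 3.58.1 on voom weights or log2 of RPKM plus 1 or 0.1, other thresholds, the replicate block and leaving out each library. On simulated data of 13277 genes with 200 changed by 1 on the log2 scale, 49 of 193 tested were called, all with the right sign, and 4 calls were false. At 32 CPM or more, 45 of 81 were called. P-values measure the spread between these libraries, which may be technical, and reads amplified with no molecular identifiers are no count of molecules, so the limit given for 0 counts covers counting error only.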

Additional observations from a re-analysis of the deposited data

Results flagged for a closer look

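Tspan5 was at 6.42 CPM in plasma-positive replicate 3, far below the other 3 libraries of its group, the nearest of which was at 24.5 CPM. It was the only such value in 48 groups of 4 libraries examined. Chance flags about 5% of groups, so 1 in 48 is no more than chance gives.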

How the results depend on the processing

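Of 210 values of the 10 genes under other settings, 175 kept their direction and side of the threshold, 14 lost the call, 21 changed sign and none of these 21 was called. No sign was found that the replicate numbers pair the libraries, and the labels do not say whether they do. Deviations of same-numbered libraries correlated at -0.0017, 0.0037, -0.0070 and 0.0099, and 2 of 8 libraries correlated best with their own number. The cause of each change below was not tested.

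Of the 10 genes, 1 was called with relative log expression scaling, library totals only, the replicate block, the length and GC correction, an adjusted p under 0.01, or without plasma-positive replicates 2 and 3. None (0) was called with the length and GC correction plus the replicate block, where Cd81 was at 0.34 (edgeR, adjusted p = 0.0711). Leaving out a library gave 1 to 2. Cd63 lost its call at 0.61 with relative log expression scaling, 0.52 with library totals only, 0.64 with the replicate block, 0.51 with the length and GC correction, 0.52 with that correction plus the block, and 0.74 without plasma-positive replicates 2 and 3. Leaving out a library gave 0.56 to 0.74.

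Cd37 turned to -0.0228 with relative log expression scaling, -0.0226 with DESeq2, -0.12 with totals only, -0.0019 with at least 1 CPM in 4 libraries, -0.0056 with limma-voom, and -0.13 with the length and GC correction, with or without the replicate block. Leaving out a library gave -0.0384 to 0.0331. Cd82 turned to -0.0036 with relative log expression scaling, -0.0938 with totals only, -0.0027 with DESeq2, and -0.14 with the length and GC correction, with or without the replicate block. Leaving out a library gave -0.0481 to 0.0816. Tspan4 turned to 0.0419 on RPKM plus 1 and 0.0423 on RPKM plus 0.1.

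The other tetraspanins had 1 call, Tspan7, with upper-quartile scaling, DESeq2, limma-voom, both RPKM scales, the length and GC correction and an adjusted p under 0.1, and 0 to 2 when a library was left out. The partners had 0 calls with relative log expression scaling, totals only, the replicate block alone or with the correction, an adjusted p under 0.01, and without plasma-positive replicates 2 and 3, and 0 to 1 when a library was left out. Over all genes the 187 calls became 963 with DESeq2 (480 higher and 483 lower), 447 and 432 on RPKM plus 1 and plus 0.1 (388 and 370 higher), 74 with the replicate block (52 higher), 70 with the length and GC correction (54 higher), 17 with that correction plus the block, 407 and 46 at adjusted p under 0.1 and 0.01, and 15 without plasma-positive replicates 2 and 3. Leaving out a library gave 66 to 203. Totals only gave 64 higher and 163 lower calls. The median change of all genes was -0.11 with totals only, 0.11 on RPKM plus 1 and 0.16 on RPKM plus 0.1. Plasma-negative replicate 4 holds the fewest counts, and 3 counts there stand for 1.01 CPM.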

Other observations

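Tspan2, a tetraspanin of oligodendrocytes, was named after its values were seen. It had 106 counts in plasma-positive replicate 2, 37 in plasma-positive replicate 3 and 0 in the other 6 libraries, too few for the test. Plasma-positive replicate 2 was also the library with the highest sum of oligodendrocyte markers, 534 CPM.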
